A study of Mus musculus with 6 samples.

Results

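Peaks that lie outside genes but within 10 kb of a transcription start site (TSS) were examined in a chromatin immunoprecipitation sequencing (ChIP-seq) study of Krüppel-like factor 3 (KLF3) in murine embryonic fibroblasts (MEFs). The members are the peaks that the authors annotated as intergenic and whose centre is at most 10000 bp from the nearest RefSeq TSS. There were 1318 such peaks among the 22188 of the series. The rule used position alone and no peak height. The cells were MEFs from Klf3-/- mice of the C57BL/6 strain, so no group holds endogenous KLF3. They carried a V5-tagged construct from an MSCV retrovirus, and each line was a stable single clone kept under puromycin, so construct and clone cannot be told apart. KLF3 is the full length protein, ΔDL has a 2 amino acid change in the motif that contacts the corepressor CtBP, and DBD lacks the N-terminal domain and keeps the zinc fingers with a putative nuclear localization signal. DNA was precipitated with an anti-V5 antibody in 2 biological replicates of each construct, and every replicate had its own input.

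KLF3 belongs to a family of zinc finger factors that bind CACCC boxes and GC-rich elements in promoters and enhancers. It acts mainly as a repressor, and its N-terminal domain recruits CtBP, a corepressor that brings histone-modifying enzymes to DNA. Sequence a few kilobases from a start site can hold proximal enhancers, alternative promoters and silencers. AP-1 (Fos and Jun dimers), RUNX, TEAD and ETS factors are known to occupy such elements in fibroblasts.

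Sequences reaching 50 bp to each side of the centre of a few members are shown on the plus strand of mm9, because the height differences described further on separate peaks that hold a KLF word from peaks that do not. Capitals mark a KLF word (ACACCC or ACGCCC or CCACCC or CCGCCC, or its reverse complement) or the AP-1 word TGACTCA in either orientation. The first 4 are the members with the highest KLF3 peaks, at chr5:143585021-143585121 (Tnrc18), chr19:9057449-9057549 (Ahnak), chr19:36203930-36204030 (Ankrd1) and chr3:90390998-90391098 (S100a2).
Tnrc18: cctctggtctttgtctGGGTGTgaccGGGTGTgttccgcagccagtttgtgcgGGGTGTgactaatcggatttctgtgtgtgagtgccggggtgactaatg
Ahnak: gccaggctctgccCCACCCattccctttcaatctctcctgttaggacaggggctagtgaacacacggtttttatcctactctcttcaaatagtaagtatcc
Ankrd1: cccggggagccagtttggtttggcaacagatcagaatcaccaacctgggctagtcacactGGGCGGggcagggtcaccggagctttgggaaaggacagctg
S100a2: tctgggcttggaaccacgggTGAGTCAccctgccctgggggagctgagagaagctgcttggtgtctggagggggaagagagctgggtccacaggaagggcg
The Tnrc18 window held 3 copies of ACACCC, the Ahnak and Ankrd1 windows each held 1 KLF word, and the S100a2 window held the AP-1 word and no KLF word.

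The next sequences come from the member with the most negative ΔDL difference whose ΔDL height was above the worth of 3 tags, though only just (Slc37a4), from Cyr61, Junb and Klf9, which encode regulators of matrix signalling and transcription, and from the 3 members with the highest DBD peaks (S100a14, Cttnbp2nl and Gm3852). They lie at chr9:44205038-44205138, chr3:145316417-145316517, chr8:87503996-87504096, chr19:23209559-23209659, chr3:90329471-90329571, chr3:104861906-104862006 and chr1:46063449-46063549, respectively.
Slc37a4: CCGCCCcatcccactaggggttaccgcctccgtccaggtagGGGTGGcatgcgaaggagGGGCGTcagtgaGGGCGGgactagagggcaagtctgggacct
Cyr61: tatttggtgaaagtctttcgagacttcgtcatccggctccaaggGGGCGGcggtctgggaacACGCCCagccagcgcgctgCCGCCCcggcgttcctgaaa
Junb: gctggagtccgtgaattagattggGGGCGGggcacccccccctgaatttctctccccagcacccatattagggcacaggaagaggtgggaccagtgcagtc
Klf9: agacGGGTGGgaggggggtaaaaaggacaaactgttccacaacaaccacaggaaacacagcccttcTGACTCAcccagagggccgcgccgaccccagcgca
S100a14: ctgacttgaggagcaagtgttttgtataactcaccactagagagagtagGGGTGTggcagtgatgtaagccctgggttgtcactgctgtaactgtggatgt
Cttnbp2nl: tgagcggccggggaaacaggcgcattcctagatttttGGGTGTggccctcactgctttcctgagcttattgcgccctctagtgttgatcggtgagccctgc
Gm3852: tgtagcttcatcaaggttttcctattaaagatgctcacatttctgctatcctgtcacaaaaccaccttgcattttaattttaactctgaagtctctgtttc
Slc37a4 held 4 KLF words of 3 kinds and Cyr61 held 3, in windows with G+C contents of 67.3% and 63.4%. S100a14 and Cttnbp2nl each held a single ACACCC. Gm3852, at 35.6% G+C, held neither a KLF word nor the AP-1 word.

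The members lay 1007 to 9996 bp from the nearest TSS, with a median of 4957 bp. Of the 1318, 226 were at 1 to 2 kb, 439 at 2 to 5 kb and 653 at 5 to 10 kb. Most (1170, 88.8%) were upstream of the TSS. Downstream of a TSS, sequence within 10 kb is often inside the gene, and peaks there are annotated as intronic or exonic. The members had 1201 nearest genes, 107 of which had 2 or more members. At 305 members (23.1%) the nearest gene also had a promoter peak, promoters being defined by the authors as 1 kb upstream to 100 bp downstream of the TSS. GENCODE transcripts on the same build placed 1133 of the centres outside every transcript and 130 inside a protein-coding one. They also placed 76 centres (5.77%) in the promoter window of a GENCODE start, so that Slc37a4 (94 bp upstream of such a start) is a promoter peak by that annotation and a near intergenic peak by RefSeq. The median height difference between ΔDL and KLF3 was -0.38 at those 76 members and 0.22 at the others.

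The files give a peak list for each replicate, whose scores the authors normalized to 100 M tags, and a table of all peaks with heights, the log2 of normalized tags within 400 bp, for which both replicates were pooled. A height therefore has no replicate error, and differences in height are described without a test. The replicate lists held 8105 to 32624 peaks and rested on 1.77 M (ΔDL replicate 1) to 18.1 M tags (KLF3 replicate 2). The heights of KLF3, ΔDL and DBD rested on 23.3 M, 11.8 M and 16.0 M tags. A height below the worth of 3 tags (25.3 normalized tags for ΔDL, 18.7 for DBD) is too low to be read as a fold. Heights were not whole multiples of a tag, and the lowest DBD height, 1.08 normalized tags, lay below the 6.23 that 1 tag is worth. Heights below the worth of 3 tags stood at 3 members in ΔDL, 93 in DBD and 0 in KLF3. A lower height can come from binding in fewer cells or from less protein precipitated, which cannot be told apart here.

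Near intergenic peaks made up a like share of every replicate list. The share was 6.47% and 6.24% in the KLF3 replicates. It was 5.47% and 6.07% in the ΔDL replicates and 4.88% and 5.24% in those of DBD. Means were 6.36% ± 0.167 (SD, n = 2) in KLF3, 5.77% ± 0.427 in ΔDL and 5.06% ± 0.256 in DBD. The widest 95% Wilson interval, for DBD replicate 2 with 425 near intergenic peaks, was 4.78% to 5.75% and covers counting error only. The replicates of KLF3 lay above those of ΔDL and DBD, and those of ΔDL above those of DBD. With 2 replicates against 2, a two-sided exact permutation test cannot give a p below 0.333, which is the value for each of the 3 comparisons and also its Benjamini-Hochberg adjusted value. Counted among the intergenic peaks of each list alone, the shares spread further, from 8.30% and 9.06% in the DBD lists over 10.2% and 13.1% in the ΔDL lists to 15.4% and 19.1% in the KLF3 lists.

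At the members the 3 constructs had unequal heights. The median KLF3 height was 7.54 (186 normalized tags) and that of ΔDL was also 7.54 (187 tags), whereas DBD had 6.02 (64.9 tags). Promoter peaks had medians of 8.32, 7.62 and 5.41 for KLF3, ΔDL and DBD, and intergenic peaks 10 to 100 kb from a TSS had 7.15, 7.53 and 6.29. Beyond 100 kb the medians were 6.52, 7.47 and 6.74. The median ΔDL height thus changed little between these regions, while that of KLF3 fell with distance and that of DBD rose. Near intergenic peaks stood between promoters and more distal peaks in both. The medians cover peaks called for any construct, and the mix of calls differed between regions. KLF3 replicate 2 called 98.3% of promoter peaks, 71.5% of the members and 40.6% of peaks beyond 100 kb. For DBD replicate 1 these shares were 2.74%, 24.5% and 55.1%. The trends with distance thus cannot be told apart from which construct admitted the peaks.

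**Figure D1:**
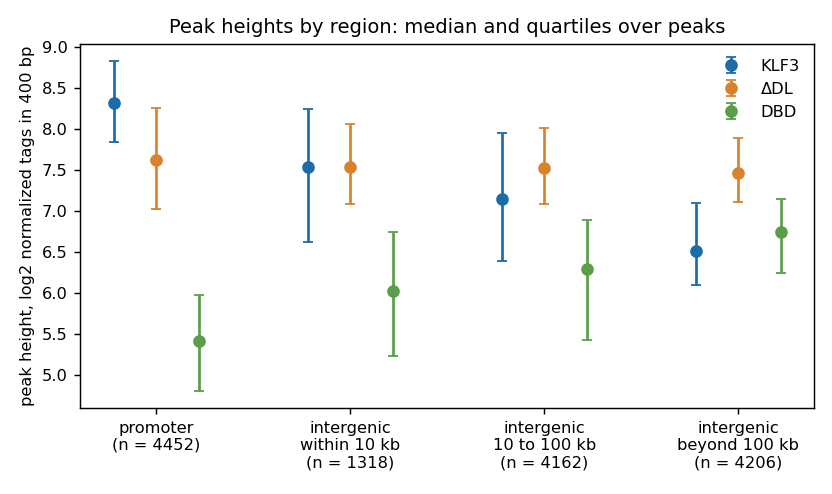
Median peak height (points) and quartiles over peaks (bars), in log2 normalized tags per 400 bp, for KLF3, ΔDL and DBD in 4 regions. Each region holds the peaks called for any construct. Intergenic peaks within 10 kb of a TSS sit between promoter peaks and more distal intergenic peaks for KLF3 and DBD, with medians of 7.54 and 6.02, and at 7.54 for ΔDL.

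The height difference between ΔDL and KLF3 had a median of 0.16 over the members. ΔDL was at least 2-fold lower at 219 members (16.6%), where 14.8% of all peaks were, and at least 2-fold higher at 307 (23.3%), where 28.8% of all peaks were. Among promoter peaks 33.6% were lower and 0.854% higher, and among intergenic peaks beyond 100 kb 2.71% were lower and 52.7% higher, before the scaling described next. With it, 85.5% of promoter peaks were lower and 0 higher, and beyond 100 kb 11.8% were lower and 0.689% higher. Against KLF3, DBD had a height at least 2-fold lower at 797 members (60.5%, against 52.6% of all peaks) and at least 2-fold higher at 32 (2.43%, against 3.27%). The direction of the ΔDL median depends on how the libraries are scaled. When the constructs were set to equal medians at the 2334 peaks that each of them was listed for, which shifted ΔDL by -1.06 and DBD by -0.42, the median ΔDL difference of the members became -0.90. After scaling, ΔDL was lower at 619 members (47.0%, against 42.9% of all peaks) and higher at 7 (0.531%, against 0.397%), and DBD was lower at 819 (62.1%, against 53.7%) and higher at 4 (0.303%, against 0.428%). Scaling moved the ΔDL counts by more than the members differed from all peaks.

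Within the members, distance had little relation to height. Members at 1 to 2 kb had a median KLF3 height of 7.90 and a median ΔDL difference of -0.10, whereas those at 2 to 5 kb and at 5 to 10 kb had 7.47 and 7.47, with differences of 0.20 and 0.24. Across the 1318 members, Pearson's r between absolute distance and KLF3 height was -0.0813 and Spearman's rho was -0.0878. Members upstream and downstream of the TSS had median KLF3 heights of 7.55 and 7.48. The 305 members whose nearest gene also had a promoter peak had a median KLF3 height of 7.91, and the promoter peak of the same gene, the highest in KLF3 where there were several, had 8.48. Only 78 of these members (25.6%) were higher than that promoter peak. The ΔDL difference was less negative at the member than at its promoter in 220 of the 305 (72.1%), with medians of -0.12 and -0.77. For DBD the medians were -2.47 and -3.12. Where a gene had several promoter peaks, choosing the highest in KLF3 favours each of these results. The pairs were also not matched for G+C content, whose median was 46.5% at the members and 63.5% at promoter peaks.

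Base composition separated the members far more than distance. Their median G+C content over 400 bp was 46.5%, against 63.5% at promoter peaks, 43.4% at 10 to 100 kb and 36.5% beyond 100 kb. Pearson's r between G+C content and the ΔDL minus KLF3 difference was -0.649 (Spearman's rho -0.668) over the 1318 members, which share the same libraries, and r with KLF3 height itself was 0.579. At the 304 members with at most 40% G+C the median ΔDL difference was 1.05, and at the 142 members above 60% it was -1.06. ΔDL was at least 2-fold lower at 6 of the former (1.97%) and at 80 of the latter (56.3%). After scaling the medians were -0.01 and -2.12, and ΔDL was lower at 22 (7.24%) and 133 (93.7%), so the difference between the bins stayed while the excess of ΔDL at low G+C did not.

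At like G+C content intronic peaks and intergenic peaks at 10 to 100 kb had ΔDL differences close to those of the members. At most 40% G+C the median was 1.02 for peaks at 10 to 100 kb and 1.05 for introns, and above 60% it was -1.01 and -1.11. Between 45% and 50% G+C the medians were 0.08 for the members, 0.11 at 10 to 100 kb, 0.16 in introns and 0.01 at promoters. Intergenic peaks beyond 100 kb differed there, with a median ΔDL difference of 0.60 and a DBD difference of -1.02, against -1.98 for DBD at the members. Promoter peaks differed most from the members at 40% to 45% G+C, where the 88 promoter peaks had a median ΔDL difference of 0.18 and the 261 members 0.69. The DBD difference behaved likewise, going from 0.44 at members with at most 40% G+C to -3.21 above 60%. The members listed for KLF3 alone had a median G+C content of 51.0% and those listed for ΔDL alone 41.1%. The bins thus also differ in which construct admitted the peak. These are descriptions over peaks, and whether base composition itself, the binding words it carries or the recovery of GC-rich fragments in each library moves with the heights was not tested.

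**Figure D2:**
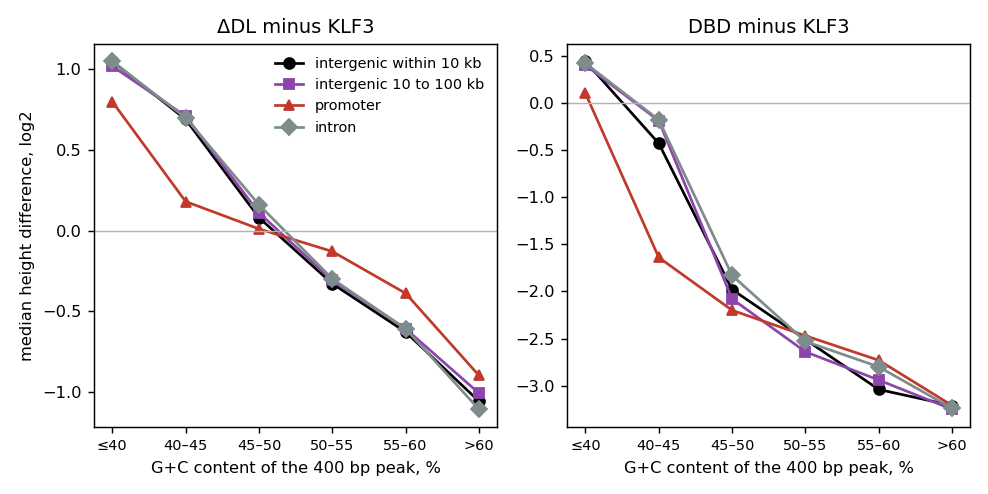
Median height difference from KLF3 (log2) of ΔDL (left) and DBD (right) against the G+C content of the 400 bp peak, for intergenic peaks within 10 kb of a TSS and 3 other regions. The curve of the near intergenic peaks falls from 1.05 to -1.06 for ΔDL and lies close to those of introns and of peaks at 10 to 100 kb, in heights as deposited, before the scaling shift of -1.06.

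KLF words were common in the members and gathered at the peak centre. In 100 bp around the centre, 579 of the 1318 members (43.9%) held a KLF word on either strand, against 17.1% of windows of the same length 400 bp away and 40.2% of all peaks. The AP-1 word TGACTCA stood in 200 bp around 241 members (18.3%), against 3.38% of their flanks and 12.3% of all peaks. The shares were 7.36% and 5.58% in flanks for the RUNX word TGTGGTT, 17.5% and 11.1% for the TEAD word GGAATG, and 2.20% and 0.948% for the ETS word CCGGAAG. All peaks held these 3 words in 6.15%, 13.4% and 4.44%, respectively. Members thus held the AP-1 word 5.42 times as often as their flanks, where promoter peaks held it 1.61 times as often (3.28% of peaks). Peaks at 10 to 100 kb (17.4%, 4.27 times their flanks) and in introns (15.9%, 4.46 times) were close to the members. The ETS word was more frequent at promoters (16.9%). A match is a run of letters and not a shown binding site. CCACCC is shared by the KLF words and by sites of many other zinc finger factors.

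**Figure D3:**
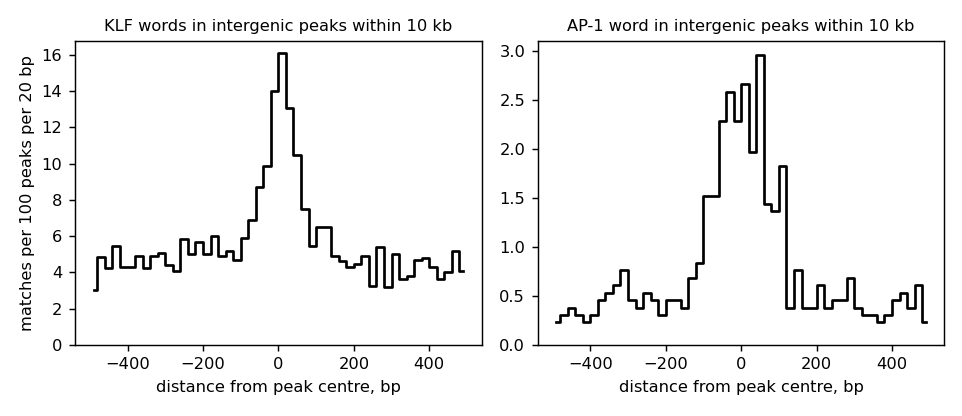
Matches per 100 peaks in bins of 20 bp, by distance from the peak centre, for the KLF words (left) and the AP-1 word (right) over the 1318 intergenic peaks within 10 kb of a TSS. KLF words reach 16.1 per 100 peaks just beside the centre against 3.03 to 5.84 beyond 200 bp upstream of it on the plus strand, and the AP-1 word peaks more broadly, at up to 2.96.

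Sequence went with the constructs that a member was listed for. The authors took forward peaks that overlapped between the replicates of a construct, and the listing is slightly stricter than a call in both replicates. Both KLF3 replicates called 911 members, and 901 were listed for KLF3. Of the 286 listed for ΔDL alone, KLF3 replicate 1 called 93 and KLF3 replicate 2 called 34. Of the 1318, 794 (60.2%) were listed for KLF3 and not for DBD, 238 (18.1%) for DBD with or without the others, and 286 (21.7%) for ΔDL alone. The KLF3 members not listed for DBD had a median G+C content of 50.5%, and 515 of them (64.9%) held a KLF word and 213 (26.8%) the AP-1 word. The DBD members had 39.8% G+C, and 26 of them (10.9%) held a KLF word and 9 (3.78%) the AP-1 word. Those listed for ΔDL alone resembled the DBD members, with 41.1% G+C, a KLF word in 38 (13.3%) and the AP-1 word in 19 (6.64%). The flanks of the members listed for ΔDL alone held a KLF word in 10.7%. The 26 members listed for DBD alone held a KLF word 0.286 times as often as their flanks. For the 105 listed for ΔDL and DBD the ratio was 0.609, and for the 104 listed for all 3 constructs 1.23. Of the 3 listed for KLF3 and DBD, 2 held the word, against 0 of their flanks. Most DBD members thus showed little or no excess of KLF words over nearby sequence, which was not tested.

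Heights and conservation followed the same division. At the KLF3 members not listed for DBD the median KLF3 height was 263 tags, the ΔDL height 197 and the DBD height 43.7. At the DBD members they were 107, 221 and 148, and at those of ΔDL alone 71.0, 154 and 88.0. The listing rests on calls from the same tags, so this order of the constructs is a description. Mean PhastCons conservation (0 to 1) was 0.188, 0.0745 and 0.0727 in the 3 groups. CpG islands held 102 of the KLF3 members not listed for DBD and 0 of the DBD members, while LINE repeats held 2.90% and 11.8%.

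A KLF word went with a KLF3 height of 8.10 (median of 579 members), against 6.84 at the 739 members without it. With it the median ΔDL difference was -0.39 and the DBD difference -2.65, and without it they were 0.82 and 0.17. Members with the AP-1 word and no KLF word (114) had a KLF3 height of 7.84, a ΔDL difference of -0.34 and a DBD difference of -2.68, where the 452 members with a KLF word alone had 8.11, -0.37 and -2.64. The 625 members with neither word had a KLF3 height of 6.70 and differences of 0.90 and 0.27. KLF3 height rose with the number of KLF words, from 115 normalized tags with 0 words to 258 with 1, 300 with 2 and 463 in the 10 members with 4 or more. G+C content rose beside it, from 42.8% to 62.0%, and its part was not tested. A peak is a member when it is listed for any construct, so members with low KLF3 heights include those listed for a mutant alone. A KLF word was held by 64.7% of the members listed for KLF3 alone and 13.3% of those listed for ΔDL alone. The split by word therefore cannot be told apart from which construct admitted the peak.

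The replicate lists gave the same ordering by construct. The members came from these lists, so this adds no separate support. Among near intergenic peaks a KLF word was held by 39.3% and 56.2% in the KLF3 replicates, 18.7% and 34.7% in ΔDL, and 9.62% and 13.6% in DBD. Within each construct the deeper list had the higher share (1.77 M and 10.2 M tags in ΔDL), and the part of depth was not tested. In every list this share exceeded that of the peaks at 10 to 100 kb of the same list, by 10.1 and 11.1 percentage points in the KLF3 lists, 4.36 and 9.78 in the ΔDL lists, and 1.37 and 2.39 in the DBD lists. The mean difference was 6.50 ± 4.29 (SD, n = 6) with a two-sided exact sign-flip permutation p of 0.0312, the smallest that 6 lists can give, and an adjusted p of 0.0625 over the 14 differences tested. Within bins of G+C content the difference was 2.37 ± 1.69, still positive in 6 of 6 lists, with the same exact p (0.0312; adjusted 0.0625). Against promoters of the same list the near intergenic peaks held a KLF word less often (mean difference -39.1 points, SD 9.66) and the AP-1 word more often (9.03 points, SD 8.0), each in 6 of 6 lists (exact permutation p = 0.0312, adjusted 0.0625). Within bins of G+C content these differences were -10.1 (SD 3.52) and 6.52 points (SD 5.63), with the same direction in 6 of 6 lists and the same exact p. The AP-1 share differed from that at 10 to 100 kb by 0.0419 ± 1.88 points, and the KLF3 lists were lower by 1.43 and 3.12 points while the other 4 were higher. The lists share many sites, so the 6 values are not fully independent.

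**Figure D4:**
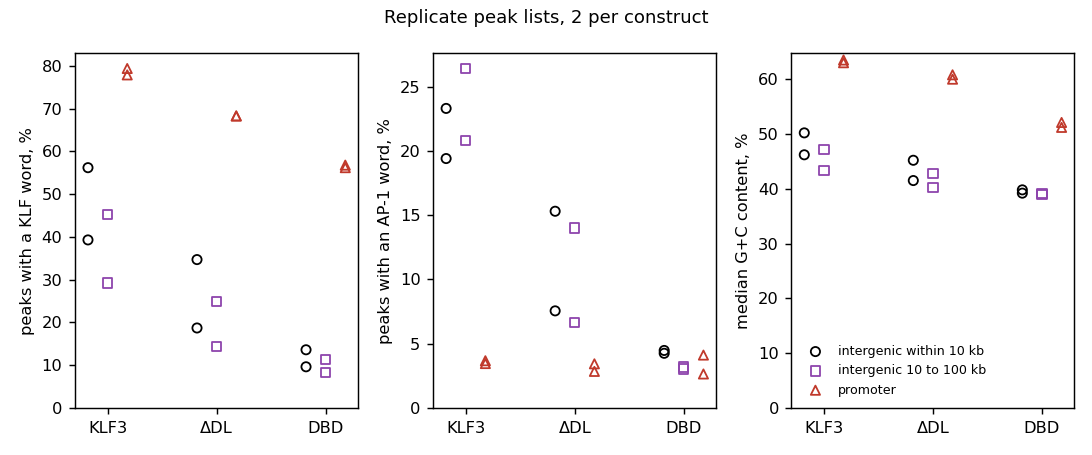
Share of peaks with a KLF word (left), with the AP-1 word (middle) and median G+C content (right), all in percent, in each of the 2 replicate lists of every construct (1 symbol per list). Near intergenic peaks lie above those at 10 to 100 kb and below promoters in the share with a KLF word, from 56.2% in a KLF3 list to 9.62% in a DBD list.

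Scores told less of a difference between regions than these sequence features, but they are coarse. Near intergenic peaks and those at 10 to 100 kb had tied medians of 6 and 11 tags in the ΔDL lists and 10 in both DBD lists. In the KLF3 lists the medians were 10 against 9 and 21 against 19 tags. A value of 0.00 below is thus a tie in tags and does not show that regions were alike. The median log2 score of near intergenic peaks minus that of peaks at 10 to 100 kb was 0.15 and 0.14 in the KLF3 lists and 0.00 in the other 4 lists (mean 0.05 ± 0.08, n = 6, two-sided exact sign-flip p = 0.5, adjusted 0.676). Minus promoter peaks it was -0.26 and -0.31 in the KLF3 lists, 0.00 and -0.24 in the ΔDL lists, and 0.15 in both DBD lists (mean -0.08 ± 0.21, exact permutation p = 0.375, adjusted 0.583). Within bins of G+C content these means were 0.02 ± 0.06 and 0.00 ± 0.10.

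The members with the highest KLF3 peaks were at Tnrc18, Ahnak, Ankrd1, S100a2, 4930578M01Rik, S100a14 and Cttnbp2nl, with 1128 to 1479 normalized tags. The Tnrc18 member (chromosome 5, 143584871 to 143585271, 6005 bp upstream) reached 1479 tags in KLF3, 904 in ΔDL and 67.2 in DBD. Calls came from both KLF3 replicates (70 and 159 tags) and from ΔDL replicate 2 (60 tags), and from no other list. The Ankrd1 member (chromosome 19, 36203780 to 36204180) lies 9646 bp upstream of the gene of a cardiac ankyrin repeat protein that is a known target of YAP, and had 1333, 1296 and 175 tags. The members of S100a2 and S100a14, which encode calcium-binding proteins, lie close together on chromosome 3 and differed in DBD, with 118 tags at S100a2 (1314 for KLF3) and 704 at S100a14 (1218 for KLF3). In this group DBD reached 630 and 704 tags at Cttnbp2nl and S100a14 and at most 185 at the other 5 members.

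**Figure D5:**
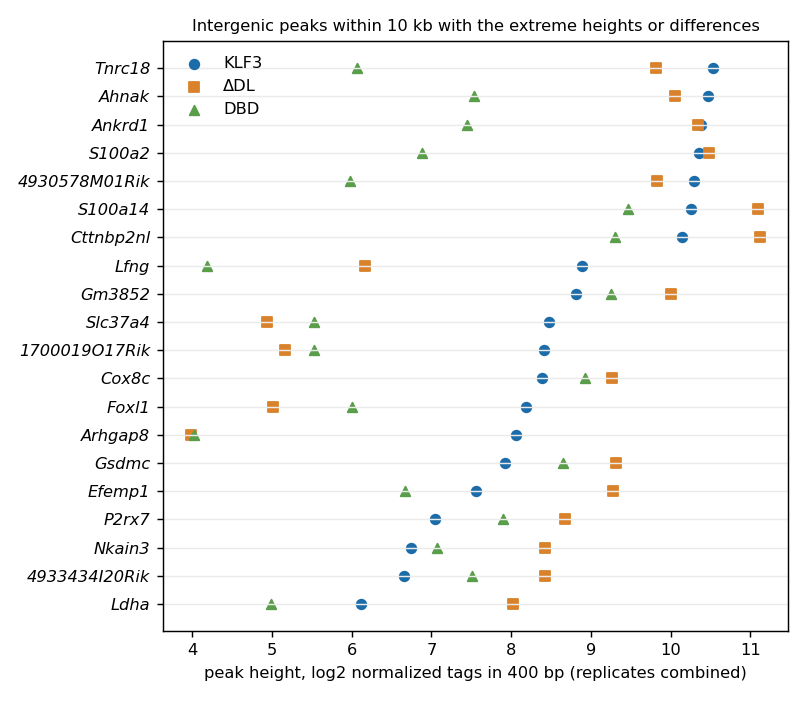
Heights (log2 normalized tags in 400 bp, both replicates combined) of KLF3, ΔDL and DBD at the members with the highest KLF3 or DBD peaks and at those with the lowest and highest ΔDL minus KLF3 difference, ordered by KLF3 height. Tnrc18 has the highest KLF3 height (10.53), and Arhgap8, Slc37a4, Foxl1, Lfng and 1700019O17Rik have KLF3 heights of 8.06 to 8.89 beside ΔDL heights of 3.99 to 6.17.

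At the ends of the range stood members with little ΔDL signal and members with more ΔDL than KLF3 signal. Among members with a KLF3 height of at least 8 the lowest ΔDL differences were at Arhgap8 (267 KLF3 and 15.9 ΔDL tags, the latter below the worth of 3 tags), Slc37a4 (355 and 30.7), 1700019O17Rik (340 and 35.8), Foxl1 (290 and 32.2) and Lfng (474 and 72.0). Each was called in both KLF3 replicates and in no ΔDL or DBD list. At Slc37a4, the glucose-6-phosphate transporter, the log2 difference was -3.53, and at Lfng, a glycosyltransferase of the Notch pathway, it was -2.72. The ΔDL heights at Slc37a4, 1700019O17Rik and Foxl1 lay little above the 25.3 that 3 tags are worth. With 1 tag worth 8.45, the size of these folds is uncertain. Among members with a ΔDL height of at least 8 the highest differences were at Ldha (1.90), 4933434I20Rik (1.76), Efemp1 (1.72), Nkain3 (1.69) and P2rx7 (1.63). These fell to 0.84, 0.70, 0.66, 0.63 and 0.57 after scaling, so none was then 2-fold higher. Ldha, lactate dehydrogenase A, had 69.6 KLF3 and 260 ΔDL tags. Its calls rested on 5 and 13 tags in ΔDL, and no KLF3 or DBD list held it.

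The highest DBD peaks were at S100a14, Cttnbp2nl, Gm3852, Cox8c and Gsdmc, with 704, 630, 609, 484 and 402 tags. All 5 were called in all 6 replicate lists. At Gm3852 the tags were 449 for KLF3 and 1031 for ΔDL, at Cox8c 335 and 617, and at Gsdmc 242 and 639. DBD exceeded KLF3 there by 0.44, 0.53 and 0.73 on the log2 scale, values that became 0.02, 0.11 and 0.31 after scaling. These members are among the 2334 peaks whose medians the scaling set equal, so the fall is a result of its definition. The Cox8c member is in a LINE and the Gsdmc member in an LTR.

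A test with replicate error was possible only at sites called in both replicates of both constructs, which leaves out every member lost from a mutant list. Of the members, 278 could be compared between ΔDL and KLF3 and 107 between DBD and KLF3, on log2 scores centred on the median of each list and fitted with limma over 4892 and 2409 sites. Adjusted p was under 0.05 and ΔDL lower at 26 members (9.06% of all sites tested), and higher at 0 members (0.143% of all sites). At an unadjusted p under 0.05, ΔDL was higher at 8 members. For DBD, 4 members were lower (3.74% of all sites) and 0 higher (0.0415% of all sites), with 1 member higher at an unadjusted p under 0.05. The counts for ΔDL, 26 of 278, were close to the background share, and those for DBD, 4 of 107, too.

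Among the most reduced members in ΔDL were those at Efna5, 4930578M01Rik, Bmper and 2610203C20Rik. At Efna5, the gene of an ephrin ligand (chromosome 17, 63232269 to 63232669, 1803 bp upstream), scores were 1100 and 503 in the KLF3 replicates and 283 and 391 in ΔDL, the latter resting on 5 and 40 tags. The log2 difference was -2.0 ± 0.46 (SE, limma, adjusted p = 0.0013). At Bmper, which encodes a regulator of bone morphogenetic proteins, it was -1.80 ± 0.46 (adjusted p = 0.0041). Without centring these values were -1.16 and -0.96, and no member passed. Calls rested on few libraries, since the count of 26 became 5 without KLF3 replicate 1, 0 without KLF3 replicate 2, 0 without ΔDL replicate 1 and 62 (with 9 higher) without ΔDL replicate 2.

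DBD was lower than KLF3 at Cttnbp2nl, Ebf3, S100a14 and Twist1. At Cttnbp2nl the scores were 1833 and 946 for KLF3 and 435 and 585 for DBD (log2 difference -1.66 ± 0.28, limma adjusted p = 5.7e-05). At Ebf3, the gene of a transcription factor, they were 421 and 171 against 102 and 107, the DBD scores resting on 8 and 9 tags (-1.63 ± 0.27, adjusted p = 4.5e-05), and at S100a14 2126 and 1017 against 640 and 692 (-1.42 ± 0.27, adjusted p = 0.00033). At Twist1, a regulator of mesenchyme, the KLF3 scores of 293 and 188 stood above 115 and 119 in DBD (-1.28 ± 0.27, adjusted p = 0.0018). KLF3 and DBD replicates did not overlap at these 4 members, which were picked by the fit on the same scores, so this adds no support. The count of 4 became 2 without KLF3 replicate 1, 1 without KLF3 replicate 2, 0 without DBD replicate 1 and 1 without DBD replicate 2, and 0 without centring. Both Cttnbp2nl and S100a14 were among the members with the highest DBD peaks and were nevertheless lower in DBD than in KLF3.

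Members near genes of 10 gene groups that matter in fibroblasts are given by their heights, and an 11th group, of cholesterol and lipid genes, had 0 members. Within a group the members were named by highest KLF3 height unless stated, which favours lower mutant values, so they need not be typical of the group. Over all members the median difference from KLF3 was 0.16 for ΔDL and -1.91 for DBD, and over all peaks 0.42 and -1.45. AP-1 factor genes had 5 members at 4 genes (Fosl2, Junb, Fosb and Fos), with a median ΔDL difference of -1.45, and ΔDL was at least 2-fold lower at 4 of them, where 14.8% of all peaks and 16.6% of the members were. The Fosl2 member had 67.5% G+C, the Junb members 65.2% and 61.5%, and the Fosb member 55.5%. Among all members ΔDL was 2-fold lower at 28.7% of those with 55% to 60% G+C and at 56.3% of those above 60%. The Fosl2 member (chromosome 5, 32437461 to 32437861) reached 765 tags in KLF3, 309 in ΔDL and 71.5 in DBD, and is listed for ΔDL alone because KLF3 called it in replicate 2, with 68 tags, and not in replicate 1. The Junb members, which overlap each other, had 468 and 446 KLF3, 260 and 154 ΔDL and 12 and 17.8 DBD tags. In 3 of the 5 members DBD was below the worth of 3 tags. With those values set to that bound the median DBD difference was -3.78. Klf9, itself a family member, had 2 members on chromosome 19 (304 and 300 KLF3, 90.5 and 114 ΔDL, and 45.6 and 27.3 DBD tags).

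Targets of the Hippo pathway had 5 members, with a median ΔDL difference of -0.48. ΔDL was 2-fold lower at 0 of them and higher at 1, where 14.8% and 28.8% of all peaks were. The latter, Amotl2, was higher by 1.22 before the scaling shift of -1.06 (named after its value was seen). Besides Ankrd1 these included Cyr61 (879 KLF3, 452 ΔDL and 88.6 DBD tags) and Ctgf (292, 181 and 56.5), which encode matricellular proteins. Immediate early and feedback genes had 16 members at 10 genes, with a median ΔDL difference of -0.40, and DBD was 2-fold lower at 14, where 52.6% of all peaks and 60.5% of the members were. Ier2 had 690, 576 and 119 tags, and Dusp1, a phosphatase that turns off MAP kinases, had 584, 635 and 50.9 at its upstream member. Cell cycle genes had 4 members, among them Myc (402, 338 and 96.3) and Cdkn2c (407, 241 and 58.1).

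Extracellular matrix and adhesion genes had 8 members, DBD being 2-fold lower at all 8 of them (median -3.32; 52.6% of all peaks) and ΔDL at 2 (median -0.51; 14.8% of all peaks). Timp2, an inhibitor of metalloproteinases, had 666 KLF3, 508 ΔDL and 56.9 DBD tags, Sparc had 596, 609 and 103, and Col6a1 had 564, 923 and 134. The 10 members of the actin cytoskeleton and lamin group had a median ΔDL difference of 0.15. DBD was at least 2-fold lower at 9, where 52.6% of all peaks and 60.5% of the members were. The 3 members upstream of Lmna, the gene of lamin A and C, lay 9003 to 9841 bp away and had 247 to 360 KLF3, 282 to 383 ΔDL and 15.7 to 39.1 DBD tags.

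Members of the TGF-beta and BMP pathway numbered 7, with a median ΔDL difference of -0.53. DBD was at least 2-fold lower at 6, where 52.6% of all peaks and 60.5% of the members were. Among them were Id2 with 491, 405 and 41.4 tags and Id1 with 422, 190 and 49.9. Growth factors and receptors had 9 members, with ΔDL differences from -2.68 to 1.27 before scaling. Pdgfa, a ligand of fibroblasts, had 405 KLF3 and 63.1 ΔDL tags (difference -2.68) at a peak that GENCODE places 9 bp downstream of a start, whereas Epgn, an EGF receptor ligand, had 211 and 461 (1.13) and Egfr itself 189, 357 and 247 for DBD. The Epgn value was 0.07 after scaling, and ΔDL called the member in replicate 2 alone, on 25 tags. Chemokines and cytokines had 4 members. Ccl20 had 175 KLF3 and 30.5 ΔDL tags, the latter little above the worth of 3 tags, and a DBD height below it. Cxcl5 had 249, 526 and 55.7, a ΔDL difference of 1.08 that was 0.02 after scaling.

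Some genes carried several members, and they did not always move together. Rhof, which encodes a small GTPase, had 4 members 3068 to 5725 bp upstream with 455 to 600 KLF3 tags and ΔDL differences of -0.30 to -1.12. Utrn, the gene of utrophin, had 3 members on chromosome 10, at 7494, 6998 and 6555 bp upstream. ΔDL had 164, 657 and 431 tags there against 690, 744 and 1024 for KLF3, log2 differences of -2.07, -0.18 and -1.25. Both loci were chosen after their values were seen, for their number of members. At the edge of the rule, the members just inside 10 kb were at Fbln2 (9996 bp) and Olfr866 (9984 bp), with 474 and 63.1 KLF3 tags, and the intergenic peaks just outside it were at Smurf2 (10001 bp) and Dlc1 (10010 bp), with 280 and 936.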

How the data were processed

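Anti-V5 ChIP-seq peaks of KLF3, ΔDL and DBD in rescued Klf3-/- MEFs were analysed, 2 replicates per construct. Reads of 50 bp were aligned by the authors to mm9 (Bowtie2 2.0.0 in the submitters' processing notes). They called peaks on each replicate against its input with HOMER (4.1, 5-fold over input and over the surrounding 10 kb, false discovery rate 0.001) and annotated them with RefSeq. Peak scores, as deposited, are a signal in tags, normalized by the authors to 100 M tags of each replicate. All scores were whole multiples of a smallest step, 1 tag, which gave tags and depth. Heights are log2 values that the authors made from tags of both replicates together in 400 bp, so depth and input cannot be separated in them. Conservation is a mean PhastCons score deposited with the merged lists. Other columns served only for position and annotation, and the inputs enter only through peak calling.

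A member was called in a list when they shared at least 1 bp. Shares were compared with two-sided exact permutation tests and per-list differences with exact sign-flip tests, both with Benjamini-Hochberg adjustment. Log2 scores, centred on each list's median, were tested with limma over all sites called in the 4 lists. On simulated scores at 4892 sites with 200 changed, limma recovered 93 of 100 log2 changes of 2 for ΔDL, and at 2409 sites 100 of 100 for DBD, while 5 and 14 unchanged sites passed. Words were searched on both strands of mm9 in 100 bp (KLF) or 200 bp around the centre and in flanks 400 bp away. GENCODE M1 on the same build was used for the second annotation, and the RefSeq promoter sequences, of another build, were not used.

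The lines were single clones, so replicate spread covers separate precipitations, not separate clones. Members and gene lists were chosen with earlier results of these data known. Members named in the text are the 8 highest for KLF3, the 5 lowest and 5 highest ΔDL differences at a log2 height of at least 8, the 5 highest for DBD, those at genes of the study's examples, up to 4 per gene list by highest KLF3 height, up to 5 limma calls per direction, and 2 on each side of the 10 kb limit. Choice by KLF3 height favours members where the mutants are lower. Some members that this rule picks are not reported here. The tests of sequence features per list and the bins of G+C content (edges at 40, 45, 50, 55 and 60%) were chosen after seeing the data. Tests ran in R 4.3.3 with limma 3.58.1 and in scipy 1.17.1, and sequence was read with pysam 0.24.0.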

Additional observations from a re-analysis of the deposited data

Results flagged for a closer look

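Several differences within lists ran one way in both lists of a construct and the other way in both lists of another. None of these differences between constructs was tested, since 2 lists against 2 cannot pass the threshold. The median log2 score of near intergenic peaks minus promoter peaks averaged -0.29 in the KLF3 lists and 0.15 in the DBD lists, and within bins of G+C content -0.09 and 0.11. Against peaks at 10 to 100 kb within bins of G+C content, the score difference averaged 0.06 for KLF3 and 0.04 for ΔDL, and -0.05 for DBD. The share of near intergenic peaks with an AP-1 word, minus that at 10 to 100 kb, averaged -2.27 percentage points for KLF3, 1.14 for ΔDL and 1.26 for DBD. Within bins of G+C content the AP-1 difference was -2.31 points for KLF3 and 1.23 for DBD.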

How the results depend on the processing

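The differences in share between constructs kept their direction under every alternative tried and never passed the threshold. Leaving out each list in turn gave 0.283 to 0.886 percentage points for KLF3 minus ΔDL, 1.11 to 1.47 for KLF3 minus DBD and 0.406 to 1.01 for ΔDL minus DBD, and the replicate block, a sign-flip over same-numbered pairs, left them at 0.585, 1.29 and 0.708. The deviations of same-numbered lists correlated at 0.311 (KLF3 and ΔDL), -0.0162 (KLF3 and DBD) and 0.0487 (ΔDL and DBD) over 2345 sites. Same-numbered KLF3 and ΔDL lists thus shared part of their deviation, which the main fit without a replicate term leaves out. The pairs with DBD shared little. The limma counts depended on the setting. ΔDL was lower at 26 members, at 0 without centring or in the upper 50% of sites by mean score, at 65 (with 8 higher) with the replicate block, and at 0 to 62 (with 0 to 9 higher) when a list was left out. With 0 called, at an unadjusted p under 0.05, 0 members were lower and 11 higher without centring, 20 were lower and 20 higher in the upper 50% of sites, and 16 and 31 were lower (3 and 4 higher) without KLF3 replicate 2 and without ΔDL replicate 1. DBD was lower at 4 members, at 4 with the replicate block, at 0 without centring (2 at an unadjusted p under 0.05) and at 0 to 2 when a list was left out (4 at an unadjusted p under 0.05 without DBD replicate 1). A list left alone in its construct was assumed to vary like the other construct. An overlap of 50% of the 400 bp site could not be run, since replicate peaks are 123 to 143 bp wide; 50% of the replicate peak, chosen after seeing the data, gave 26 and 4.

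Height counts moved with scaling, to 619 lower and 7 higher for ΔDL (from 219 and 307) and 4 higher for DBD (from 32). Within 5 kb the counts were 124 and 147 for ΔDL and 420 and 16 for DBD, over fewer members. DBD was higher at 14 of the members listed for DBD and at 12 of those with a height of at least 7 in either construct. The share with a KLF word was 55.4% in 200 bp, 66.6% in the upper 50% of members by KLF3 height and 15.9% with CCACCC alone. In 100 bp the AP-1, RUNX, TEAD and ETS words were in 11%, 3.95%, 9.71% and 1.52%, and in the upper 50% the AP-1, TEAD and ETS words in 26.5%, 22.4% and 3.78%. The AP-1 difference from peaks at 10 to 100 kb, 0.0419 points, became -0.346 within bins of G+C content and -0.220 to 0.675 when a list was left out (-0.136, -0.220, -0.196 and -0.207 without ΔDL replicate 1, ΔDL replicate 2, DBD replicate 1 and DBD replicate 2). The cause of these changes was not tested.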
